A study of Mus musculus with 4 samples.

Results

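Heat shock proteins and their J-domain co-chaperones were examined in pachytene spermatocytes of adult C57BL/6 mice, the meiotic male germ cells in which homologous chromosomes are fully paired. The genes were chosen by symbol: the Hspa, Hspb and Hsp90 families, Hsph1, Hspd1, Hspe1 and the Dnaja, Dnajb and Dnajc families. The rule found 73 of the 21038 genes with a row in the deposited files, and 1 of them, Dnajc19-ps, had no value in any library. The remaining 72 were 13 HSP70 family genes, 1 HSP110 gene (Hsph1), 3 HSP90 genes, 8 small heat shock protein genes, the HSP60 and HSP10 genes of the mitochondrial chaperonin, and 4 DNAJA, 13 DNAJB and 28 DNAJC genes. Spermatocytes isolated from the testis came from Tcfl5+/+ mice (wild type, 2 libraries) and from mice with 1 mutated Tcfl5 allele, Tcfl5+/- (heterozygote, 2 libraries). The product of Tcfl5 is a transcription factor of the basic helix-loop-helix type. The labels name no treatment. The labels do not say whether replicates came from separate animals, so every p-value measures only the spread between these libraries, which may be technical.

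HSP70 proteins bind and release unfolded stretches of other proteins in a cycle driven by ATP. J-domain proteins, the DNAJ families, deliver clients to HSP70 and trigger its ATP hydrolysis, and HSP110 and other exchange factors let the nucleotide go again. HSP90 acts later, on nearly folded clients, while small heat shock proteins hold unfolded proteins without using ATP. In the testis several of these proteins have germ cell forms: HSPA2 is needed in mice for spermatocytes to complete meiosis, and HSPA1L, HSPA4L, HSPB9, DNAJB3 and DNAJB13 are known for their expression in germ cells.

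Levels were the authors' FPKM, a value per transcript length and per library, so levels of different genes can be set side by side. Library depths are unknown, as the files give no read counts. Tcfl5 itself stood at 249 and 238 FPKM in the wild-type libraries (replicates 1 and 2, the order used throughout) and at 137 and 189 FPKM in the heterozygote libraries, on average 66.9% of the wild-type level (limma, adjusted p = 0.242). All 12 pachytene markers had values, with sums of 5147 to 5551 FPKM per library. Markers of Sertoli cells, the somatic cells that nurse the germ cells, were also present, and their summed level was 915 and 586 FPKM in wild-type libraries and 900 and 314 FPKM in heterozygote libraries. Spermatid markers summed to 2310 and 1044 FPKM in wild-type libraries and to 3201 and 2562 FPKM in heterozygote libraries, and Leydig cell markers to 555 and 349 FPKM and to 599 and 319 FPKM. Macrophage markers were near absent, with all 9 under 1 FPKM in every library. In bulk RNA, fewer cells of a type and less RNA per cell cannot be told apart.

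Chaperone mRNA was abundant. The median member had 23.2 FPKM, against 2.52 FPKM over all 19445 genes with a value, and 30 members reached a mean of at least 50 FPKM. Together the members held 1.54% of the summed FPKM in each wild-type library and 1.46% and 1.45% in the heterozygote libraries. The 3 most abundant members, Hsp90aa1, Hspb9 and Hspa2, made up 37.1% of that sum.

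Hsp90aa1, the inducible cytosolic HSP90, had 1363 and 1339 FPKM in wild-type libraries and 1256 and 1313 FPKM in heterozygote libraries. That placed it 17th by mean level among all genes. Its libraries did not overlap between genotypes, and the adjusted p was 0.769. Hspb9, a small heat shock protein of the testis, had 655 and 731 FPKM in wild-type libraries and 681 and 633 FPKM in heterozygote libraries, so the genotypes overlapped. Hspa2, the HSP70 of spermatocytes, had 706 and 685 FPKM in wild-type libraries and 608 and 668 FPKM in heterozygote libraries. Both Hspa2 values in the heterozygote lay below both wild-type values, by 0.13 ± 0.08 (SE) on the log2 scale, with an adjusted p of 0.617. Hspb9 and Hspa2 ranked 59th and 60th among all genes and differed from each other by less than the spread of their libraries.

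**Figure D1:**
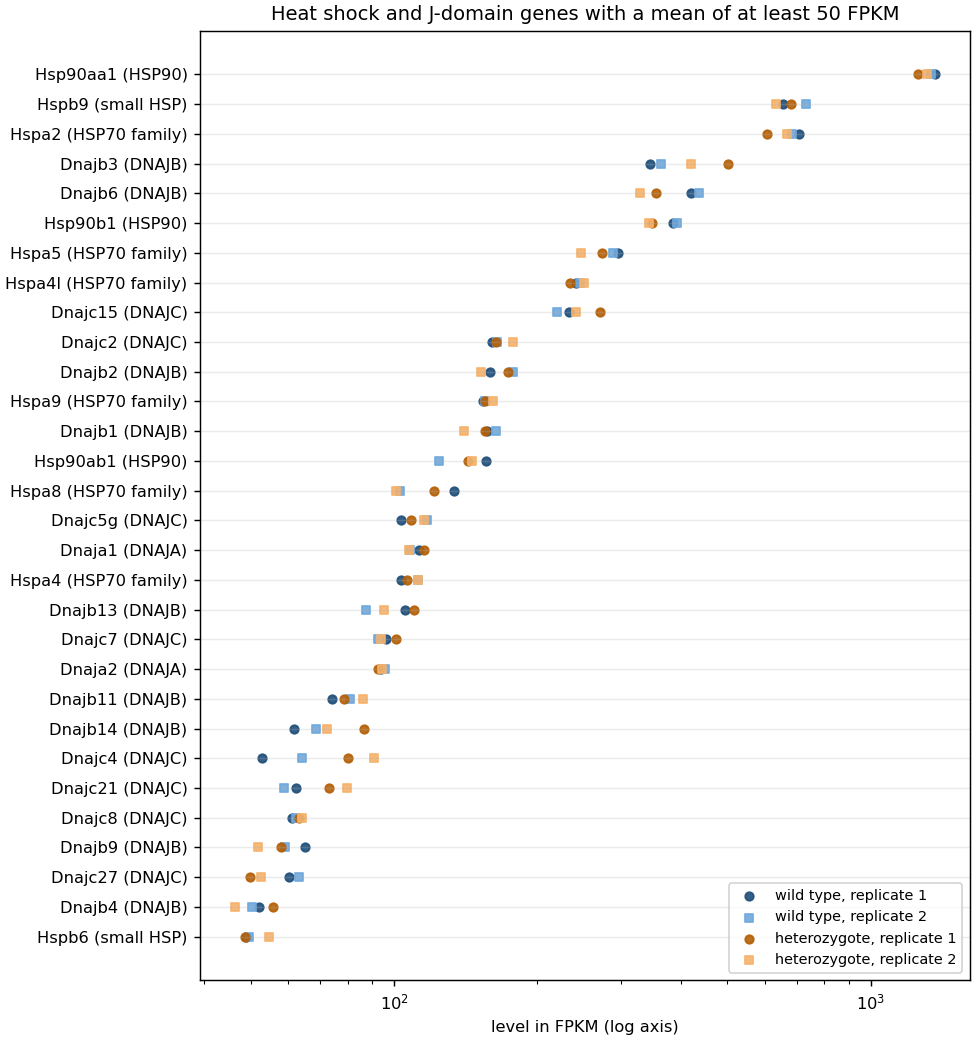
Level in FPKM (log axis) of the 30 members averaging 50 FPKM or more, with 1 point for each of the 4 libraries (blue wild type, orange heterozygote, circle replicate 1, square replicate 2). Hsp90aa1 stands apart at 1256 to 1363 FPKM, and for most members the points of both genotypes lie close together.

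Below these came the J-domain genes Dnajb3 and Dnajb6, described with the genotype comparison, and then a set of chaperones of the endoplasmic reticulum and the cytosol. Hspa4l, an HSP110-type relative of HSP70 with a role in sperm formation in mice, had 241 and 246 FPKM in wild-type libraries and 234 and 251 FPKM in heterozygote libraries. Dnajc15, a mitochondrial J protein, had 233 and 220 FPKM against 271 and 241 FPKM. Dnajc2, which with a partner HSP70 acts at the ribosome, had 160 and 164 FPKM against 164 and 177 FPKM. Among these 3 genes, the genotypes overlapped for Hspa4l and Dnajc2, and both heterozygote values of Dnajc15 lay above the wild type (adjusted p = 0.517). Hspa9, the mitochondrial HSP70, was among the steadiest members, with 154 and 155 FPKM in wild-type libraries and 155 and 161 FPKM in heterozygote libraries. Dnaja1 and Dnaja2, the main cytosolic J proteins of the DNAJA class, had 107 to 115 FPKM and 92.7 to 95.6 FPKM over all libraries, with overlapping genotypes. Dnajb13, a J protein of the sperm flagellum, had 105 and 87.4 FPKM against 110 and 95.5 FPKM, and in both genotypes the replicate 2 library was the lower.

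Hsp90ab1 and Hspa8, the constitutive cytosolic HSP90 and HSP70, had their highest value in wild-type replicate 1. Hsp90ab1 had 156 and 125 FPKM in wild-type libraries and 143 and 146 FPKM in heterozygote libraries, and Hspa8 had 133 and 103 FPKM against 122 and 101 FPKM. In both genes the genotypes overlapped. Hspa4 had 104 and 113 FPKM against 107 and 112 FPKM, and Dnajc5g had 104 and 117 FPKM against 109 and 115 FPKM, again with overlap. Dnajb2, a neuronal J protein that sorts ubiquitinated clients, had 159 and 178 FPKM against 173 and 152 FPKM. Dnajc7, which binds HSP70 and HSP90 at the same time, had 92.7 to 101 FPKM over the libraries, and Dnajb4 had 46.4 to 55.75 FPKM. Dnajc8, a J protein of the spliceosome, had 61.1 and 62.2 FPKM against 63.2 and 64.25 FPKM, a difference of 0.05 ± 0.08 (log2, SE) without overlap. The signs of Hsp90ab1, Hspa4, Dnajc5g, Dnajc7 and Dnajc8 turned when libraries were scaled to equal sums.

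Within several families 1 member dominated. In every library Hsp90aa1 exceeded Hsp90ab1, the constitutive cytosolic HSP90, by 8.72, 10.7, 8.81 and 8.99 times. Hspa2 exceeded Hspa8, the constitutive cytosolic HSP70 of most cells, by 5.30, 6.64, 5.00 and 6.60 times. Both ratios therefore had the same order in all 4 libraries, and their values in the genotypes overlapped. Hspa4l stood at 2.33, 2.19, 2.19 and 2.23 times the level of Hspa4, its broadly expressed relative. Dnajc5g exceeded Dnajc5, the cysteine string protein of nerve terminals, by 9.86, 14.1, 11.0 and 11.9 times. The related Dnajc5b also exceeded Dnajc5, by 3.44, 1.98, 3.88 and 2.58 times, with the lower ratio in the replicate 2 library of each genotype. Ratios of Hspa1l, the germ cell HSP70, to the stress-inducible Hspa1a were 23.6 and 24.0 in wild-type libraries and 32.0 and 38.4 in heterozygote libraries. That ratio rests on Hspa1a values under 1 FPKM in every library, and Hspa1a and Hspa1b are nearly identical copies whose reads can be split between them in an uncertain way.

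**Figure D2:**
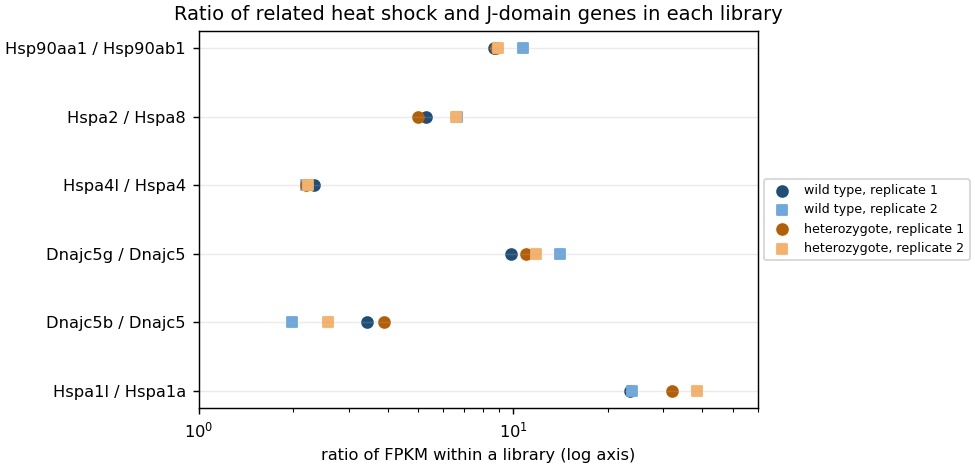
Ratio of FPKM within each library (log axis) for 6 gene pairs of the same family, with 1 point per library (blue wild type, orange heterozygote, circle replicate 1, square replicate 2). Every ratio is above 1, from 1.98 for Dnajc5b over Dnajc5 to 38.4 for Hspa1l over Hspa1a.

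No member passed the test between heterozygote and wild type. By limma on log2(FPKM + 1) with Benjamini-Hochberg adjustment, 0 of the 67 members tested had an adjusted p under 0.05, as did 0% of the 13333 genes tested. At an unadjusted p under 0.05, 6 members were higher in the heterozygote (8.96%, against 7.63% of all genes tested) and 4 were lower (5.97%, against 5.57%). Both shares are near the background. Both heterozygote libraries lay above both wild-type libraries for 14 members (20.9%, against 23.6% of genes) and below them for 16 (23.9%, against 19%). A gap of at least 1.5-fold on FPKM + 1 without overlap was reached by 1 member upwards (Dnajc22, against 2.38% of genes) and 1 downwards (Hspb7, against 2.77% of genes). The median log2 difference was 0.01 over the members and -0.02 over all genes. The log2 difference lay within 0.2 of 0 for 45 of the 67 members and ranged from -1.41 to 0.84.

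These counts moved when a library was left out or the scale was changed. The number of genes passing the test moved with the processing too. Median-ratio scaling called 42 genes (0.315%, 1 member) and quantile normalization 119 (0.893%, 2 members), while equal-sum and upper-quartile scaling called 0. A further term for replicate number called 1213 genes (9.1%, 8 members), though the labels do not say what equal numbers share. Separation of the groups is easier to reach with 3 libraries: without wild-type replicate 1 the count of members higher without overlap was 29 (22 without heterozygote replicate 2), and without wild-type replicate 2 the count lower without overlap was 33 (26 without heterozygote replicate 1). The count at an unadjusted p under 0.05 fell to 6 without heterozygote replicate 2. The 2 members at least 1.5-fold apart became 6 when wild-type replicate 1 was dropped, 5 when heterozygote replicate 1 was, and 4 when either of the others was. When libraries were scaled to equal sums, 718 genes were higher and 915 lower at an unadjusted p under 0.05 in limma, in place of 1017 and 742. Under that scaling 11 members were higher and 21 lower without overlap. For the counts without overlap under these alternatives, shares over all genes tested are not given here. They therefore do not show whether members moved differently from other genes.

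**Figure D3:**
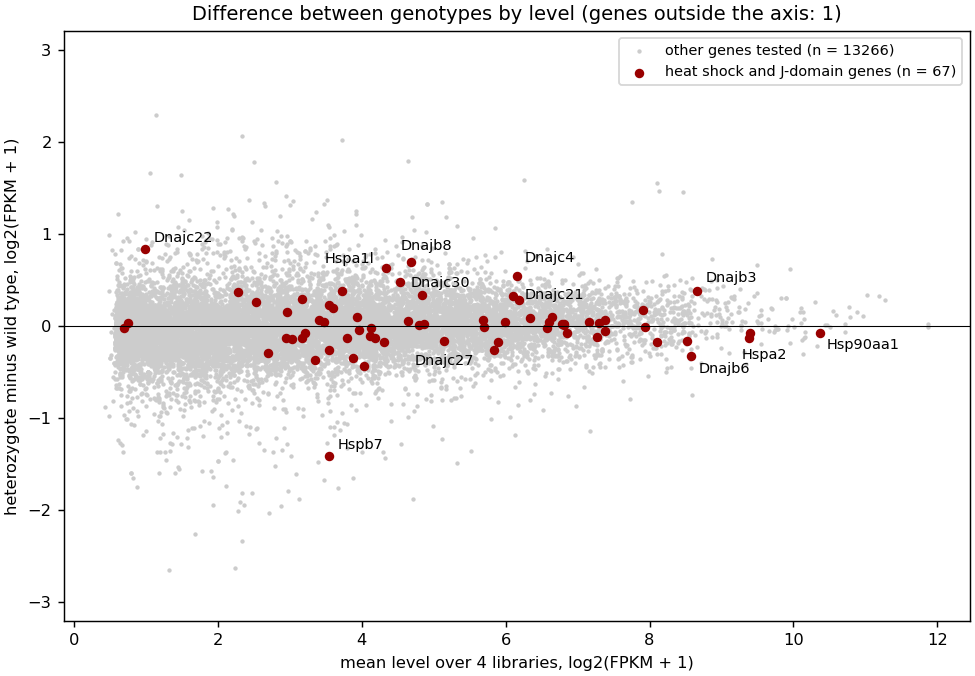
Difference between genotypes, heterozygote minus wild type, against the mean level, both on the log2(FPKM + 1) scale, for 67 members (red) and 13266 other genes tested (grey). Members lie within the cloud of other genes, from Hspb7 at -1.41 to Dnajc22 at 0.84.

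Hspb7 had the widest gap. This gene (chr4:141420779-141425310, plus strand, GRCm38) encodes a small heat shock protein best known from heart and skeletal muscle. It had 17.7 and 18.2 FPKM in wild-type libraries and 6.36 and 5.93 FPKM in heterozygote libraries. Both heterozygote libraries were far below both wild-type libraries, by 2.93 times on average, and replicates of a genotype were nearly equal. The log2 difference was -1.41 ± 0.14 (SE), with an unadjusted p of 0.000185 and an adjusted p of 0.116 in limma. That adjusted p, the smallest in the table, was shared by 32 genes, of which Hspb7 was 15th by unadjusted p. The difference stayed between -1.53 and -1.37 under all 12 alternatives, and among the scaling alternatives it passed the threshold under median-ratio scaling and quantile normalization. No other small heat shock protein tested was close to it with all 4 libraries. Hspb1 came nearest, at -0.44 ± 0.44 (log2, SE) with overlapping genotypes. The difference of Hspb1 was -1.07 without heterozygote replicate 1 and 0.19 without heterozygote replicate 2. Hspb6 had 48.9 and 49.6 FPKM against 48.7 and 54.7 FPKM. Hspb11, whose protein is part of the intraflagellar transport complex, had 36.4 and 36.6 FPKM against 30.1 and 35 FPKM. Because Hspb7 has the largest gap, its 250 bases before the start are shown (RefSeq, GRCm38.p6, 5′ to 3′). The heat shock, endoplasmic reticulum stress, E-box and cAMP response motifs searched below had no match in this window.
Hspb7, chr4:141420529-141420778, plus strand: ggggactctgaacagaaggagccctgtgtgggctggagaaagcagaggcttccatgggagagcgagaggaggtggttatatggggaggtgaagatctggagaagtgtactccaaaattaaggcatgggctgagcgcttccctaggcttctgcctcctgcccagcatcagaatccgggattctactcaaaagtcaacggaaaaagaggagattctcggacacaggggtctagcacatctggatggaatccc

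Dnajb3 and Dnajb6 were the most abundant members with an unadjusted p under 0.05. The protein of Dnajb6 keeps aggregation-prone proteins soluble. Its level was 420 and 437 FPKM in wild-type libraries and 354 and 328 FPKM in heterozygote libraries, lower in both heterozygote libraries. The wild type exceeded the heterozygote 1.26-fold, a log2 difference of -0.33 ± 0.07 (SE) with an adjusted p of 0.193, and among the scaling alternatives it passed the threshold under quantile normalization. Dnajb3, a J protein of the testis whose gene lies in a single exon, differed in the opposite direction. It had 345 and 363 FPKM in wild-type libraries and 502 and 421 FPKM in heterozygote libraries, with no overlap and a ratio of 1.30. The log2 difference of Dnajb3 was 0.37 ± 0.10 (SE), with an adjusted p of 0.250. Dnajb3 lies within the Ugt1a genes on the opposite strand, and as no strand-keeping step is named in the protocol, their reads cannot be separated, but no overlapping Ugt1a gene exceeded 6.82 FPKM. Dnajb14, a J protein of the endoplasmic reticulum membrane, had 61.8 and 68.6 FPKM against 86.65 and 72.3 FPKM (adjusted p = 0.434). Summed spermatid markers were higher in both heterozygote libraries too (2562 and 3201 FPKM against 1044 and 2310 FPKM, with 4 of the 22 markers higher at an unadjusted p under 0.05). Those 4, Prm1, Prm2, Tnp1 and Tnp2, which package sperm DNA, were singled out after their values were seen; they summed to 1038 and 438 FPKM in wild-type libraries and to 2029 and 1709 FPKM in heterozygote libraries. The other 18 summed to 1272 and 606 FPKM against 1172 and 852 FPKM, with overlap. Over all genes tested, 7.63% were higher and 5.57% lower at an unadjusted p under 0.05, and 23.6% were higher and 19% lower without overlap. Of the 12 pachytene markers, 4 were lower at that p, and 6 were lower and 0 higher without overlap. Their mean log2(FPKM + 1) was 7.37 and 7.27 in wild-type libraries and 7.10 and 7.04 in heterozygote libraries, without overlap, while their sums, of which Ldhc alone made up 3610 to 3858 FPKM, overlapped. Their part in the values of Dnajb3, Dnajb6 and the members below was not tested. With opposite differences among its members, the DNAJB class summed to 1524 ± 12.3 FPKM in wild-type libraries and 1549 ± 137 FPKM in heterozygote libraries (SD, n = 2; exact permutation test, two-sided p = 1).

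**Figure D4:**
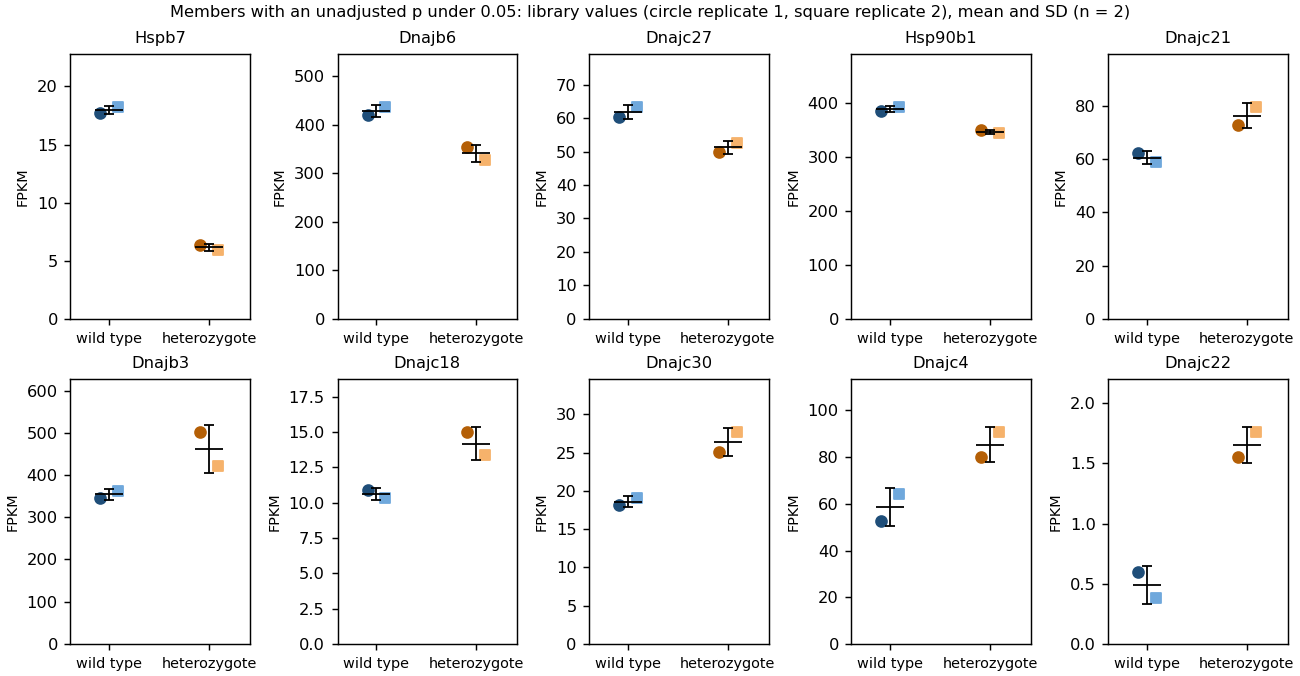
FPKM of the 10 members with an unadjusted p under 0.05, with 1 point per library and the mean and SD of each genotype (n = 2), each axis starting at 0. From Hspb7 (6.36 and 5.93 FPKM in the heterozygote against 17.7 and 18.2 FPKM) to Dnajc22 (1.55 and 1.76 FPKM against 0.600 and 0.380 FPKM), the genotypes do not overlap in any panel.

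The DNAJC class, the J proteins that share only the J domain, leaned the other way from the HSP70 and HSP90 families. Of its 27 tested genes, 21 had a higher mean in the heterozygote and 6 a lower one, and 11 were higher and 3 lower without overlap. Over all 13333 genes tested, 6363 had a higher and 6970 a lower mean, with 23.6% higher and 19% lower without overlap. The class summed to 1089 and 1069 FPKM in wild-type libraries and 1177 and 1179 FPKM in heterozygote libraries. These sums did not overlap, but an exact permutation test over 2 against 2 libraries cannot go below its p of 0.333. The sum was higher in the heterozygote under each of 4 other scalings, while the split of the 27 genes narrowed to 15 higher and 12 lower with equal sums.

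Dnajc4, a little-studied J protein, had 52.8 and 64.2 FPKM in wild-type libraries and 80.0 and 90.7 FPKM in heterozygote libraries, a ratio of 1.46. Dnajc21, which takes part in ribosome assembly, had 62.2 and 58.8 FPKM against 73.0 and 79.6 FPKM, a ratio of 1.26. Dnajc30, a mitochondrial J protein, had 18.1 and 19.1 FPKM against 25.1 and 27.7 FPKM, a ratio of 1.42. In these 3 genes both heterozygote libraries were the higher, with log2 differences of 0.54 ± 0.13, 0.33 ± 0.09 and 0.48 ± 0.11 (SE) and adjusted p of 0.211, 0.237 and 0.209. Dnajc30 shares 461 bases with Wbscr22 on the opposite strand, which had 30.6 to 34.3 FPKM, and reads of the shared bases cannot be told apart. Dnajc18 had 10.9 and 10.3 FPKM against 15 and 13.4 FPKM, higher in both heterozygote libraries (adjusted p = 0.349). Dnajc22, a membrane J protein, was near the lower limit of the values, with 0.600 and 0.380 FPKM in wild-type libraries and 1.55 and 1.76 FPKM in heterozygote libraries. Its ratio of 3.38 rests on these low levels, and its log2 difference was 0.84 ± 0.18 (SE) with an adjusted p of 0.192. Dnajc27, a small GTPase with a J domain, went against the class, with 60.3 and 63.3 FPKM in wild-type libraries and 50.0 and 52.7 FPKM in heterozygote libraries (adjusted p = 0.288). Each of the 10 members with an unadjusted p under 0.05 kept its direction under every alternative. As none of them overlapped between genotypes, leaving out a library could not turn a direction. Neither the other filters nor the replicate block alter the difference itself, so these alternatives could not decide how firm the directions are.

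Chaperones of the endoplasmic reticulum were compared next, since 3 of the members there share a promoter element. The endoplasmic reticulum stress response element was searched as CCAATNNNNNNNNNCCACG, on both strands, in RefSeq windows from 250 bases before to 50 bases after each gene start, on GRCm38.p6. It was found for 37 of 27025 genes (0.137%) and for 3 of the 58 members with a window (5.17%): Hspa5, Hsp90b1 and Dnajc3. The 250 bases before the start are shown for Hspa5 and Hsp90b1, the most abundant of these, with the element in capitals. Hspa5 holds it at positions -65 to -47 from the start, and Hsp90b1 at -212 to -194 and, on the other strand, at -107 to -89. A match describes the letters and does not show binding.
Hspa5, chr2:34771840-34772089, plus strand: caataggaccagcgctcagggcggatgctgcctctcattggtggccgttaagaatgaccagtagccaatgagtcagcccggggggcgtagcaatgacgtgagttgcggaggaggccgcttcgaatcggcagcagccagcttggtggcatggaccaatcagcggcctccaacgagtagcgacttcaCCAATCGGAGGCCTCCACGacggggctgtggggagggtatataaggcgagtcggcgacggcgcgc
Hsp90b1, chr10:86705445-86705694, minus strand: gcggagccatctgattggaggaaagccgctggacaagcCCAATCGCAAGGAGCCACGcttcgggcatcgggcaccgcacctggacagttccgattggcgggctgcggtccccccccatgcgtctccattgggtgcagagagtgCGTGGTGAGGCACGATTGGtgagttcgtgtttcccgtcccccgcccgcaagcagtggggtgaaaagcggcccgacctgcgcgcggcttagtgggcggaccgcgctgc

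Hsp90b1, the HSP90 of the endoplasmic reticulum, had 384 and 392 FPKM in wild-type libraries and 349 and 343 FPKM in heterozygote libraries. Hspa5, the HSP70 of that compartment (BiP), had 296 and 288 FPKM against 273 and 247 FPKM. Both genes were lower in both heterozygote libraries, by 1.12 times on average, with log2 differences of -0.17 ± 0.06 and -0.17 ± 0.08 (SE) and adjusted p of 0.368 and 0.479. The ratio of Hspa5 to Hsp90b1 within a library was 0.769 and 0.736 in wild-type libraries and 0.784 and 0.718 in heterozygote libraries, so the balance of the HSP70 and the HSP90 overlapped between genotypes. Hspa5 shares 1748 bases with Rabepk on the opposite strand, which had 82.4 to 97.0 FPKM. Dnajc3, an inhibitor of the eIF2alpha kinase and co-chaperone of BiP, had 28.3 and 25.04 FPKM against 23.3 and 30.8 FPKM, and its genotypes overlapped. Other J proteins of this compartment gave no common direction.

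Dnajb9, which helps degrade misfolded proteins, had 65.2 and 59.0 FPKM against 58.0 and 51.9 FPKM, lower without overlap (adjusted p = 0.605). Dnajb11, a lumenal co-chaperone of BiP, had 74.2 and 80.8 FPKM against 78.7 and 86.1 FPKM, and Dnajc10, a disulfide reductase, had 27.7 to 28.7 FPKM in all libraries; both overlapped. Dnajb12, a membrane J protein, had 18.1 and 13.5 FPKM against 12.1 and 11.9 FPKM, lower without overlap (adjusted p = 0.518). Among 15 lectin chaperones and disulfide isomerases of the compartment, 0 passed the test in limma, and 3 were lower and 1 higher at an unadjusted p under 0.05. Over all genes these shares were 5.57% lower and 7.63% higher. The list's median log2 difference was -0.08. Calr, the lectin chaperone calreticulin, had 441 and 413 FPKM in wild-type libraries and 324 and 341 FPKM in heterozygote libraries, lower in both (adjusted p = 0.177). P4hb, a disulfide isomerase, had 33.8 and 27.8 FPKM against 22.3 and 23.1 FPKM, also lower in both (adjusted p = 0.279). Sdf2l1, another BiP partner, was in the opposite direction with 89.6 and 93.9 FPKM against 108 and 108 FPKM (adjusted p = 0.284). Of 10 regulators of the unfolded protein response tested, 0 passed and 1 was higher at an unadjusted p under 0.05: Ddit3, a stress-induced transcription factor, with 119 and 129 FPKM against 153 and 144 FPKM (adjusted p = 0.279). Atf6b, a relative of the sensor ATF6, had 16.6 and 15.5 FPKM against 18.65 and 21.2 FPKM, and the sensor Ern1 had 1.19 and 0.73 FPKM against 0.75 and 0.40 FPKM (adjusted p of 0.435 and 0.671). Of these, Ern1 overlapped between genotypes.

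Heat-inducible members were compared by another element. The heat shock element was searched as the inverted repeats GAANNTTC and TTCNNGAA; each reads the same on both strands, and matches of the 2 spellings may overlap. At least 1 spelling was found in 16 of 58 members (27.6%) and in 17% of all genes, and 6 of the 9 heat-inducible members were among the 16: Hspa1a, Hspa1b, Hsph1, Hspb1, Hspd1 and Hspe1. The spelling GAANNTTC was found in 14 members (24.1%) and in 9.04% of genes, TTCNNGAA in 6 members (10.3%) and in 9.6% of genes, and both in 4 members. The E-box CACGTG was found in 6 members (10.3%) and 8.09% of genes, and the cAMP response element TGACGTCA in 1 member (1.72%) and 2.03% of genes. Windows of 250 bases before the start are shown for 4 members with matches, 3 of them heat-inducible. The fourth, Dnajb6, was lower in the heterozygote at an unadjusted p under 0.05 in limma. Of the other members lower at that p, Dnajc27 had a match of GAANNTTC, and Hspb7 and Hsp90b1 had a match of neither spelling. A link between the element and the genotype was not tested. Capitals mark the heat shock elements. Hspe1 has 3 overlapping matches from -89 to -72, and the same run of bases lies on the other strand in a window of Hspd1. The genes are neighbours that start from opposite strands and share 70 bases in the files' gene models. That Hspd1 window, chr1:55087933-55088182, lies inside the Hspd1 gene model, which runs from chr1:55077834 to chr1:55088217. The 250 bases before the other RefSeq start of Hspd1 had 0 matches. Hspa1a has 1 match, Hspb1 has 2 separate matches and Dnajb6 has 2 overlapping ones. The Dnajb6 window precedes a RefSeq start that lies inside the files' gene model, which begins at chr5:29735693. Its matches therefore lie within that model and not before it.
Hspe1, chr1:55087898-55088147, plus strand: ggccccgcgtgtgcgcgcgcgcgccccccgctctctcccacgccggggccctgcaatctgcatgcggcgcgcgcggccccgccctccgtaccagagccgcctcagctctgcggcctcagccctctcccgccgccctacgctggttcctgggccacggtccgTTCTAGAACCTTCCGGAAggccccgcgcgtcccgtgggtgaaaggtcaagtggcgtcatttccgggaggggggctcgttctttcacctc
Hspa1a, chr17:34972157-34972406, minus strand: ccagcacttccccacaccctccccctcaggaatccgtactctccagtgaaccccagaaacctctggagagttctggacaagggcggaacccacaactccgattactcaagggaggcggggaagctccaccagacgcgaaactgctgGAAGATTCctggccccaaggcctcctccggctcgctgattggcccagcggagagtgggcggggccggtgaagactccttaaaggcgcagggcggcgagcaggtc
Hspb1, chr5:135887669-135887918, plus strand: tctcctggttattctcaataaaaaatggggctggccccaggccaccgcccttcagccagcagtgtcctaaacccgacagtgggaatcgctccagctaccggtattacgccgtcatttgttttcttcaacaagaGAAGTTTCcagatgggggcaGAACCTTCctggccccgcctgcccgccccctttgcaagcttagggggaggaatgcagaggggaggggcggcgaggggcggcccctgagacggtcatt
Dnajb6, chr5:29735648-29735897, plus strand: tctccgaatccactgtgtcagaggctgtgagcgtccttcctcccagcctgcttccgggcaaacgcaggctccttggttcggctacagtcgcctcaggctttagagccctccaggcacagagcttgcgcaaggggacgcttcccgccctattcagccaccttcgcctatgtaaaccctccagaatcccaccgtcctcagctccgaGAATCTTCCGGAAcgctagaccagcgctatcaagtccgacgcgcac

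Hspa1a and Hspa1b, the classical stress-induced HSP70 genes, had very low levels. Hspa1a had 0.920 and 0.450 FPKM in wild-type libraries and 0.870 and 0.550 FPKM in heterozygote libraries, and Hspa1b had 0.860 and 0.430 FPKM against 0.980 and 0.300 FPKM. Neither separated the genotypes, and each had the lower value in the replicate 2 library of both. Hsph1, the inducible HSP110, had 19.99 and 20.1 FPKM against 15.8 and 19.7 FPKM, lower without overlap (adjusted p = 0.738). Dnajb1, the inducible partner of cytosolic HSP70, was far higher at 157 and 163 FPKM against 155 and 140 FPKM, also lower without overlap (adjusted p = 0.666). Of the 9 heat-inducible members, 0 passed the test in limma, 0 had an unadjusted p under 0.05, and the median log2 difference was -0.12.

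Several members differed more between replicates than between genotypes. Hspd1, the mitochondrial HSP60, had 13.9 and 8.06 FPKM in wild-type libraries and 11.2 and 5.59 FPKM in heterozygote libraries. Hspe1, its HSP10 cap, had 17.0 and 10.7 FPKM against 15.99 and 9.33 FPKM. Hspb1, a small heat shock protein of many somatic cells, had 21.1 and 15.4 FPKM against 20.7 and 8.07 FPKM. For all 3 genes the replicate 2 library was the lower in both genotypes, and the genotypes overlapped.

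Among J proteins of the testis, Dnajc5b had 36.1 and 16.5 FPKM against 38.5 and 25.1 FPKM, and Dnajb7 had 16.1 and 6.63 FPKM against 15.7 and 9.16 FPKM. Dnajb8 had 30.0 and 12.2 FPKM against 34.3 and 29.4 FPKM, with wild-type replicate 2 alone far below the rest. The same library was lowest for Hspa1l, with 21.7 and 10.8 FPKM against 27.8 and 21.1 FPKM. Their differences between genotypes, 0.33 ± 0.41 for Dnajc5b, 0.19 ± 0.46 for Dnajb7, 0.69 ± 0.41 for Dnajb8 and 0.63 ± 0.34 for Hspa1l (log2, SE), did not pass the test, and adjusted p ranged from 0.566 for Hspa1l to 0.911 for Dnajb7. Without wild-type replicate 2 the log2 difference of Dnajc5b was -0.21 and that of Dnajb7 was -0.39, while that of Dnajb8 was 0.078 and that of Hspa1l 0.15. By contrast, replicates of the same genotype differed by at most 0.14 in log2(FPKM + 1) for Hsp90aa1, Hspa2 and Hspa4l.

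**Figure D5:**
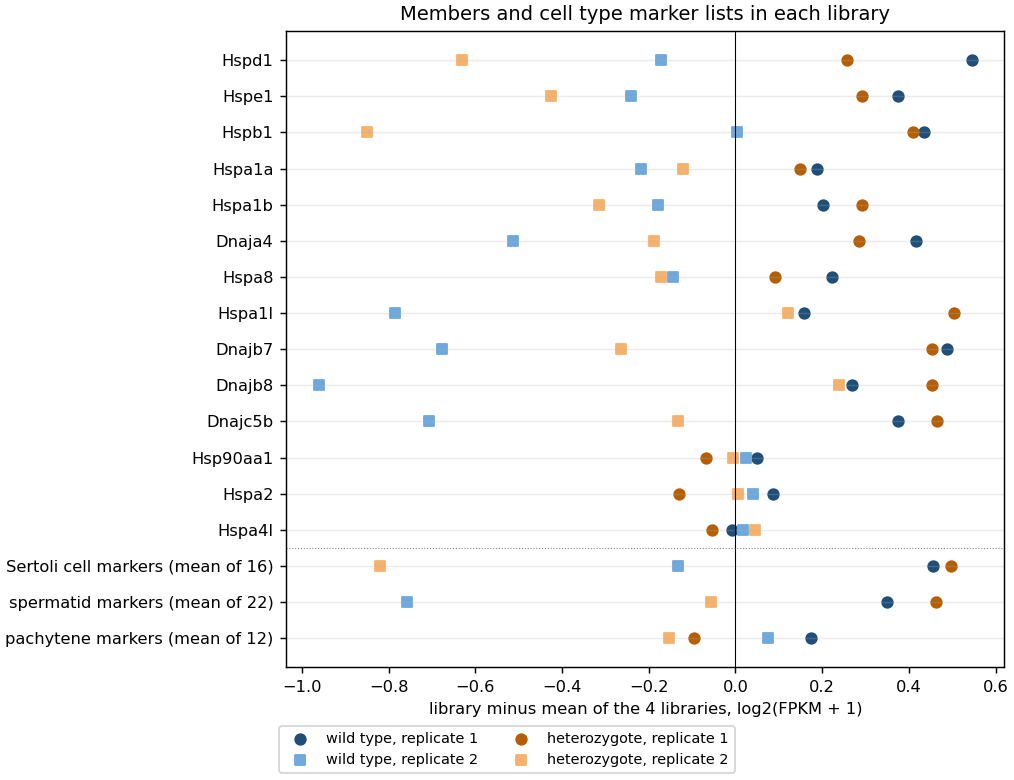
Each library minus the mean of the 4 libraries, in log2(FPKM + 1), for 14 members and, under the dotted line, the mean of 3 marker lists (blue wild type, orange heterozygote, circle replicate 1, square replicate 2). Hspd1, Hspe1 and Hspb1 are lowest in heterozygote replicate 2, as the Sertoli cell markers are, while Dnajb7, Dnajb8, Dnajc5b and Hspa1l are lowest in wild-type replicate 2, as the spermatid markers are.

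Sertoli cell and spermatid marker lists shared their lowest library with these members, but the order of the other libraries was not always the same. Hspa1l, Dnajb7, Dnajb8 and Dnajc5b were each lower in heterozygote replicate 2 than in wild-type replicate 1, whereas summed spermatid markers were higher there. Prm1, Prm2, Tnp1 and Tnp2 made that sum higher, with 1709 FPKM against 1038 FPKM in wild-type replicate 1. The other 18 spermatid markers were lower there, with 852 FPKM against 1272 FPKM. The mean log2(FPKM + 1) of the whole list was also lower there, at 5.64 against 6.04. Summed Sertoli cell markers were lowest, at 314 FPKM, in heterozygote replicate 2, where Hspd1, Hspe1 and Hspb1 were also lowest. The 16 markers all had a value and 1 of them, Fshr, stayed under 1 FPKM in every library. This was not particular to Sertoli cells, as summed Leydig cell and erythroid markers were also lowest in that library, at 319 and 2.97 FPKM. Summed spermatid markers were lowest, at 1044 FPKM, in wild-type replicate 2, where Hspa1l, Dnajb7, Dnajb8 and Dnajc5b were lowest; the 22 markers all had a value, and their summed levels ran from 1044 to 2310 FPKM in wild-type libraries and from 2562 to 3201 FPKM in the heterozygote. The part of these cells in the members' values was not tested. Lower values in replicate 2 were a feature of the whole table: 28 of the 67 members (41.8%) and 43.9% of all genes tested were lower in replicate 2 of both genotypes. By more than 0.5 on the log2 scale this held for 4 members (5.97%: Dnajc5b, Hspe1, Dnajb7 and Hspd1) and for 8.87% of genes.

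Genes that work with the members were tested in the same table, in which 7.63% of genes were higher and 5.57% lower at an unadjusted p under 0.05. Of 6 heat shock factors and their binding proteins tested, 0 passed and 0 had an unadjusted p under 0.05 in limma. Hsf1, the main heat shock factor, had 24.4 to 27.1 FPKM over all libraries, and Hsf5, a germ cell factor of the same family, had 103 and 99.7 FPKM against 95.7 and 90.1 FPKM (adjusted p = 0.622). Hsf2, a factor with a role in spermatogenesis in mice, had 10.7 and 6.08 FPKM against 8.23 and 6.40 FPKM, with overlap, and Hsbp1l1 had 17.96 and 21.9 FPKM against 22.3 and 24.8 FPKM, without overlap (adjusted p of 0.901 and 0.615). Among 14 nucleotide exchange and partner factors of HSP70, 0 passed, and 5 were higher and 0 lower at an unadjusted p under 0.05. Stub1, the ubiquitin ligase CHIP that marks chaperone clients, had 30.0 and 28.6 FPKM in wild-type libraries and 44.6 and 43.5 FPKM in heterozygote libraries. Bag1, an exchange factor, had 144 and 140 FPKM against 170 and 192 FPKM, and Grpel1, the exchange factor of mitochondrial HSP70, had 19.0 and 21.6 FPKM against 25.5 and 26.2 FPKM. All 3 were higher in both heterozygote libraries, with adjusted p of 0.145, 0.218 and 0.318.

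Among 21 co-chaperones of HSP90, 0 passed, and 5 were higher and 1 lower at an unadjusted p under 0.05, set beside the same 7.63% and 5.57% of all genes. Ttc4, which binds both HSP70 and HSP90, had 98.2 and 118 FPKM in wild-type libraries and 68.1 and 60.4 FPKM in heterozygote libraries, lower in both (adjusted p = 0.153). Fkbp8 had 105 and 97.7 FPKM against 127 and 129 FPKM, and Ppid, a cyclophilin that binds HSP90, had 39.9 and 42.1 FPKM against 52.7 and 65.97 FPKM (adjusted p of 0.195 and 0.225), both higher in the heterozygote libraries. Among 15 subunits of the cytosolic chaperonin and of prefoldin, which passes actin and tubulin to it, 0 passed, and 4 were higher and 0 lower at an unadjusted p under 0.05. Pfdn1, a prefoldin subunit, had 90.2 and 93.5 FPKM against 117 and 121 FPKM (adjusted p = 0.173). Pfdn2 and Pfdn5 were likewise higher in both heterozygote libraries (adjusted p of 0.230 and 0.215). The list medians were 0.05 for the HSP70 factors, 0.10 for the HSP90 co-chaperones and 0.09 for chaperonin and prefoldin, against -0.02 over all genes tested.

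By class, sums leaned in both directions and none could pass. HSP70 family genes summed to 1661 ± 41.9 FPKM in wild-type libraries and 1573 ± 23.1 FPKM in heterozygote libraries (SD, n = 2), and HSP90 genes to 1879 ± 34.2 FPKM and 1775 ± 38.6 FPKM. Both classes were lower in both heterozygote libraries. Their means stayed lower under each of 4 other scalings, though the libraries overlapped under median-ratio scaling. All members together summed to 7272 and 7206 FPKM in wild-type libraries and 7199 and 7024 FPKM in heterozygote libraries, a mean difference of -127 FPKM. That difference was -39.7 FPKM without heterozygote replicate 2 and -215 FPKM without heterozygote replicate 1, and scaling to equal sums or to the upper quartile gave -387 and -296 FPKM. For these 3 sums the exact permutation p was 0.333, two-sided, the smallest that 2 against 2 libraries can give. The sums of small heat shock proteins (815 ± 50.4 FPKM against 762 ± 35.8 FPKM) and of the DNAJA class (235 ± 10.6 FPKM against 234 ± 8.79 FPKM) overlapped between genotypes.

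A further 35 members had a mean from 1 to 50 FPKM and 7 were under 1 FPKM. Of the latter, Hspa12b, Hspb8, Dnajc6, Hspb3 and Hspb2 were under the mean of 0.5 FPKM that the test required and were not tested. Hspb8, an inducible small heat shock protein, had 0.15 to 0.37 FPKM over the libraries, and Dnajc6, the neuronal auxilin, 0.18 to 0.22 FPKM. Hspb3 had no row in either wild-type file, where it was set to 0, and 0.15 FPKM in both heterozygote libraries. Hspb2 had no row and was set to 0 in wild-type replicate 1 and heterozygote replicate 2, and had 0.15 and 0.09 FPKM in the others. Among the 35, Dnajc12 had 3.19 and 3.32 FPKM against 4.47 and 4.56 FPKM, higher in both heterozygote libraries (adjusted p = 0.504). Dnaja4 had 19.4 and 9.70 FPKM against 17.6 and 12.4 FPKM, with the replicate 2 library the lower in both genotypes. Hspa14, an HSP70 of the ribosome, had 15.8 to 19.3 FPKM and Hspa13, an HSP70 of microsomes, 6.11 to 8.42 FPKM, and both overlapped between genotypes. The 21 tested members that the naming rule did not take, Dnaja4, Hspa13 and Hspa14 among them, had log2 differences from -0.30 to 0.29 and adjusted p of at least 0.595.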

How the data were processed

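Per the labels' protocols, Trizol total RNA of isolated pachytene spermatocytes was selected on oligo(dT) beads and read in single-end runs of 50 bases by the BGISEQ-500, with no strand-keeping step named. Per the file headers, the authors deposited FPKM per gene. The tools RSEM 1.2.12, HISAT2 2.0.4 and Bowtie2 2.2.5 and the build GRCm38 (mm10) are listed in the submitters' processing notes; no role is given for them in the sources used here. FPKM divides by length and by library total, so a large share of a few transcripts lowers all others. Depth is unknown, and no counting interval can be given.

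The 4 files were joined by gene identifier, with a gene absent from a library set to 0 (19445 genes with a value). The 13333 genes averaging 0.5 FPKM or more were tested with limma 3.58.1 in R 4.3.3 (trend, log2(FPKM + 1), genotype as the only term, two-sided, Benjamini-Hochberg over all genes, threshold 0.05), which was checked on simulated data. Fold changes on this scale understate those of low genes; ratios in the text are of mean FPKM. Sums of members were tested by an exact permutation test over libraries. Alternatives were a pseudocount of 0.1, no filter, at least 1 FPKM in 2 libraries, scaling to equal sums, to the median ratio or to the upper quartile, quantile normalization, a replicate block, and leaving out each library. Named members were those with a mean of at least 50 FPKM, the 8 of smallest p in each direction, those at least 1.5-fold apart without overlap, those at least 2-fold apart between replicates in both genotypes (0 found), and the heat-inducible and testis-enriched lists; other members named were chosen after their values were seen, and for the partner lists the 3 of smallest p were named, with Hsf1 added. Members and lists were chosen with earlier results of these data known. Of the 73 members, 58 had a promoter window in the RefSeq table for GRCm38.p6. Testis-enriched members numbered 12, with 0 called, 1 higher and 0 lower at an unadjusted p under 0.05 and a median log2 difference of 0.06. Marker sums not given in the report were 34.7 to 57.5 FPKM for spermatogonium and early meiosis, 10.3 to 17.2 FPKM for peritubular and endothelial cells and 2.97 to 9.75 FPKM for erythroid cells, per library. Hspa1a, Hspa1b and Hspa1l lie on scaffolds in the files, and their file coordinates are not printed.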

Additional observations from a re-analysis of the deposited data

How the results depend on the processing

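Neither the pseudocount of 0.1 nor the other filters called a gene or turned a direction of a named member. Genes called were 42 under median-ratio scaling (1 member, Hspb7, lower; 6 members at an unadjusted p under 0.05), 119 under quantile normalization (2 members, Hspb7 and Dnajb6, lower) and 1213 with a replicate block, against 0 in the reported test. With the replicate block, 8 members were called (Hspb7 and Dnajb6 lower; Dnajc4, Dnajc22, Hspa1l, Dnajb3, Dnajb8 and Dnajc30 higher), against 9.1% of genes, and 16 had an unadjusted p under 0.05. Replicate differences in the genotypes correlated across 13333 genes (r = 0.529). The labels do not tie equal numbers to a shared animal or day, and there are only 2 pairs. Whether libraries of equal number share more than that number is therefore unknown, and the cause of the correlation was not tested. Directions of small differences turned with the scale (log2). With equal sums these were Hspa9 -0.016, Hsp90ab1 -0.0032, Dnajc5g -0.028, Dnaja1 -0.041, Hspa4 -0.032, Dnajc7 -0.0066 and Dnajc8 -0.0043. With the upper quartile they were Dnajc5g -0.0090, Dnaja1 -0.022 and Hspa4 -0.013, and with quantile normalization Hspa9 -0.0078, Dnajc5g -0.011, Dnaja1 -0.0297, Hspa4 -0.013, Dnajc7 -0.0059 and Hspa1b 0.044. Leaving out each library in turn gave 19 to 29 members higher and 22 to 33 lower without overlap, 4 to 6 at least 1.5-fold apart, 6 to 9 at an unadjusted p under 0.05 and a median of -0.085 to 0.037; no gene was called. Those that changed sign ranged, in log2, from -0.26 to 0.10 for Hspa8, -0.065 to 0.11 for Dnajc5g, -0.0402 to 0.079 for Hspa4, -0.14 to 0.12 for Dnajb4, -0.49 to 0.23 for Hspe1, -0.33 to 0.28 for Hspa1b, -0.16 to 0.0019 for Hspb9, -0.058 to 0.0397 for Hspa4l, -0.14 to 0.042 for Dnajb2, -0.11 to 0.21 for Hsp90ab1, -0.041 to 0.062 for Dnaja1, -0.041 to 0.23 for Dnajb13, -0.21 to 0.87 for Dnajc5b, -0.39 to 0.77 for Dnajb7, -0.17 to 0.23 for Hspa1a, -0.0088 to 0.099 for Dnajc7, -0.018 to 0.15 for Hspb6, -1.07 to 0.19 for Hspb1 and -0.82 to 0.069 for Hspd1. Of 46 named members, 25 kept their direction under every alternative and 38 under those that use all 4 libraries. Shares over all genes tested are not given here for the counts of members without overlap under the alternatives. With 1 library left in a genotype, that library is assumed to vary like the others. With 2 libraries a genotype the spread rests on few values, and with unknown depth the counting error of low genes such as Dnajc22 is unknown.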
